A study of Mus musculus with 435 samples.

Results

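Interstitial progenitors of the fetal mouse testis were described here across 3 stages of XY gonad development, from 138 single cells out of 248 deposited cells of these stages and 400 deposited cells of all stages. A cell was a member when Nr2f2 was at 10 RPKM (a read count scaled by gene length and by the mapped reads of the cell) or more, fewer than 2 of the Sertoli genes Amh, Dhh, Ptgds, Aard, Mro and Cst9 were at 5 RPKM or more, and fewer than 2 of the Leydig genes Cyp17a1, Cyp11a1, Hsd3b1 and Insl3 were at 100 RPKM or more. These 11 genes chose the cells and were left out of every test. Members were thus chosen by the measured RPKM of these genes, and differences between members and other cells are given as a description.

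All cells came from XY gonads of mice with the genotype NR5A1-eGFP on a mixed background, at E12.5, E13.5 or E16.5, with no treatment named. Cells were freed with trypsin and EDTA, sorted for eGFP with Draq7 staining to leave out dead cells, caught on Fluidigm C1 chips and converted to cDNA with the SMARTer kit. Each stage had 2 captures, which are the replicates, and the labels do not give the number of embryos behind a capture. The reporter limits the population to cells in which Nr5a1-eGFP was on, so interstitial cells outside the eGFP gate were not sampled. The labels give 10 M reads per cell for E12.5 and E16.5 and 25 M for E13.5, and the column names carry 1 code for E13.5 and another for E12.5 and E16.5. What the code stands for is not given in the sources used here. Stage cannot be told apart from depth and this code in any comparison with E13.5, whereas E16.5 and E12.5 share both. The first E13.5 capture used a medium chip and the others used small chips.

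Outside the seminiferous cords, the fetal testis holds an interstitium of mesenchymal cells, vessels and steroid-making Leydig cells. Its progenitors express the nuclear receptor Nr2f2 (COUP-TFII), the transcription factor Tcf21 and the receptor Pdgfra, and they are known as a source of Leydig cells and of other stromal cells. Sertoli cells, inside the cords, send desert hedgehog and PDGF signals to these cells. Some interstitial cells descend from the coelomic epithelium that covers the gonad, and peritubular myoid cells, which wrap the cords, carry the smooth muscle actin Acta2.

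After cells with fewer than 3000 detected genes were set aside and 2 near-identical wells were averaged as 1 cell, 136 members remained among 244 cells. The first and second captures held 23 and 15 members at E12.5, then 30 and 42 at E13.5, then 11 and 15 at E16.5. Members made up 76.7% (Wilson 95% interval 59.1 to 88.2) and 40.5% (26.3 to 56.5) of the kept cells at E12.5. At E13.5 the shares were 53.6% (40.7 to 66) and 75% (62.3 to 84.5), and at E16.5 they were 35.5% (21.1 to 53.1) and 44.1% (28.9 to 60.5). The E16.5 shares lay below both E13.5 shares but on either side of the lower E12.5 share, so the captures of E12.5 and E16.5 overlapped. With 2 captures against 2, an exact two-sided permutation test cannot go below p = 0.333, so no share was tested, and the intervals cover counting error only. Of the other kept cells, 101 met the Sertoli limit (here called Sertoli-rule cells) and 7 met neither description.

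The label was checked against its markers. Tcf21, a basic helix-loop-helix factor of mesenchyme, had capture means of 225 and 293 RPKM at E12.5, then 255 and 256 at E13.5, then 498 and 373 at E16.5. It was at 1 RPKM or more in 19 of 23, 15 of 15, 29 of 30, 36 of 42, 11 of 11 and 14 of 15 members of the 6 captures in that order. Pdgfra, the receptor for PDGF ligands, averaged 40.8 and 49.9 RPKM at E12.5, then 72.4 and 100 at E13.5, then 119 and 90.8 at E16.5. Both genes were highest on average at E16.5, and neither passed the stage test (adjusted p = 0.474 for Tcf21 and 0.366 for Pdgfra). Lhx2, another factor on the interstitial marker list, was not above 0.293 RPKM in any capture mean. The reporter transcript eGFP averaged 659 and 1272.5 RPKM at E12.5, then 726 and 679 at E13.5, then 575 and 501 at E16.5, and Nr5a1 itself lay between 9.59 and 25.4 RPKM. The eGFP transcript was at 1 RPKM or more in 20 of 23, 15 of 15, 28 of 30, 35 of 42, 10 of 11 and 13 of 15 members of the 6 captures, so some sorted cells were without it at that level.

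The Nr2f2 limit was not a close one. The 3 lowest members had Nr2f2 at 21, 21.2 and 31.3 RPKM against a member median of 190 RPKM, and 1 cell was left out by Nr2f2 alone, at 0.317 RPKM. The Sertoli limit cut through a continuous range: the second-highest Sertoli gene reached 4.71 RPKM in a member and began at 5.02 RPKM in Nr2f2 cells left out. Of the 101 Sertoli-rule cells, 60 also had Nr2f2 at 10 RPKM or more, and 21 of these were among the 22 Sertoli-rule cells of the second E12.5 capture. In that capture the Sertoli-rule cells averaged 213 RPKM of Tcf21, whereas in the first E12.5 capture they averaged 0.747 RPKM.

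That capture stood apart among members as well. In it, 8 of 15 members had 1 Sertoli gene above the limit, and the summed mean of the Sertoli list was 345 RPKM against 45.5 to 154 RPKM in the other 5 captures. Germ cell markers had a summed mean of 90.02 RPKM over its members, against at most 1.52 RPKM in the others. In it, 2 of 15 members had 2 or more of these markers at 10 RPKM, and no member of the other captures did. Pou5f1 and Mael were at 0 in every member. Macrophage markers C1qa, Cx3cr1 and Tyrobp (3 of the 6 with values) were likewise at 0 in every member. So were the mesonephric markers Pax2 and Cdh1 and the adrenal enzymes Cyp21a1 and Cyp11b2 (2 of 5 in each list). The rest of these lists was not at 0 throughout. The macrophage and mesonephric lists summed to at most 8.99 and 14.3 RPKM, both in the second E12.5 capture. The adrenal list summed to 24.4 and 22.5 RPKM at E12.5, then 9.83 and 17.3 at E13.5, then 0.194 and 0.016 at E16.5. The endothelial list summed to between 8.39 and 27.7 RPKM in 5 captures and to 140 RPKM in the second E16.5 capture, where 1 member had 2 or more endothelial markers at 10 RPKM. Median detected genes per member ranged from 4459 in that capture to 5764 in the first E13.5 capture.

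**Figure D1:**
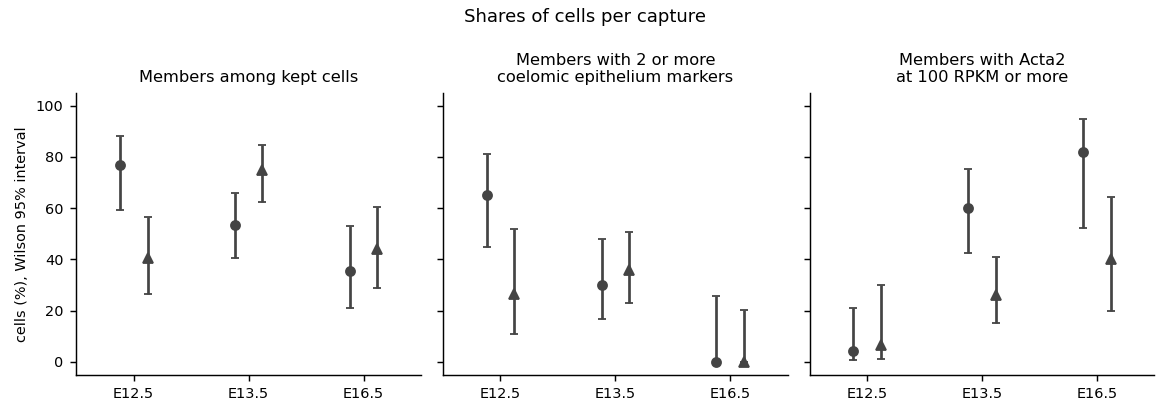
Share of cells (%) per capture at each stage with Wilson 95% intervals (circle, first capture; triangle, second capture), for members among kept cells and for members with coelomic markers or with high Acta2. No E16.5 member carried 2 coelomic markers, and members with Acta2 at 100 RPKM or more were 4.35% and 6.67% at E12.5 against 81.8% and 40.0% at E16.5.

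Members were not of 1 kind. Of the 136 members, 43 held at least 2 of 10 markers of coelomic epithelium at 10 RPKM or more. The list holds the surface protein Upk3b, the keratins Krt8, Krt18 and Krt19, the enzyme Aldh1a2, and Lrrn4, Msln, Upk1b, Podxl and Ecm1. Coelomic-marked members were 15 of 23 and 4 of 15 at E12.5, then 9 of 30 and 15 of 42 at E13.5, then 0 of 11 and 0 of 15 at E16.5. A count of 0 allows a share as high as 27.3% in the first E16.5 capture and 20% in the second. Not all marked members carried Upk3b. It was at 1 RPKM or more in 9 of 15 and 1 of 4 of them at E12.5, then in 3 of 9 and 6 of 15 at E13.5. In all, 46 members had Acta2 at 100 RPKM or more, 9 of which also held the coelomic markers: 1 of 23 and 1 of 15 at E12.5, then 18 of 30 and 11 of 42 at E13.5, then 9 of 11 and 6 of 15 at E16.5. The coelomic-marked share was 0 only in the E16.5 captures, and the high-Acta2 share was higher in every E13.5 and E16.5 capture than in either E12.5 capture.

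The stage comparison asked which genes differ between the members of E12.5, soon after cords form, and those of E16.5. Genes of extracellular matrix (Dcn, Col1a2), the growth factor Igf1, the activin subunit gene Inhba, the early-response genes Fos and Fosb, and the smooth muscle actin Acta2 were higher at E16.5. The chromatin protein gene Hmga2, the retinoic acid enzyme gene Aldh1a2, the PDGF ligand gene Pdgfc, Myl7, Ren1 and Mrps27 were lower. In limma on log2(capture mean RPKM + 1), 18 of 11052 genes passed a Benjamini-Hochberg adjusted threshold of 0.05, which is 0.163% of the genes tested. Of these, 11 were higher at E16.5 (0.0995%) and 7 were lower (0.0633%), and 1192 genes (10.8%) had an unadjusted p under 0.05. The median difference over all genes tested was -0.21, so a list is to be read against that value.

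The number of calls moved with the captures and settings used. Leaving out the first E12.5 capture gave 0 calls and leaving out the second gave 3. It was 6 without either of the E13.5 captures, and 49 without the first E16.5 capture. It was also 0 without members holding 2 or more markers of another cell type, with captures weighted by their number of members, and with no filter on low values. Leaving out the high-Acta2 members left 2 members in the first E16.5 capture and 9 in the second, and gave 0 calls with both captures (1377 genes at an unadjusted p under 0.05) and 122 with the second alone. Among named genes that passed, Acta2, Igf1, Dcn, Fos, Myl7 and Hmga2 passed in 4 of the 6 fits without 1 capture, Prss35 in 3, Aldh1a2, Pdgfc, Mrps27 and Ren1 in 2, Itih5 in 1, and Fhl2, Fosb, Inhba and Col1a2 in none. None of the 20 genes named for this comparison changed sign in any other setting in which it was tested.

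**Figure D2:**
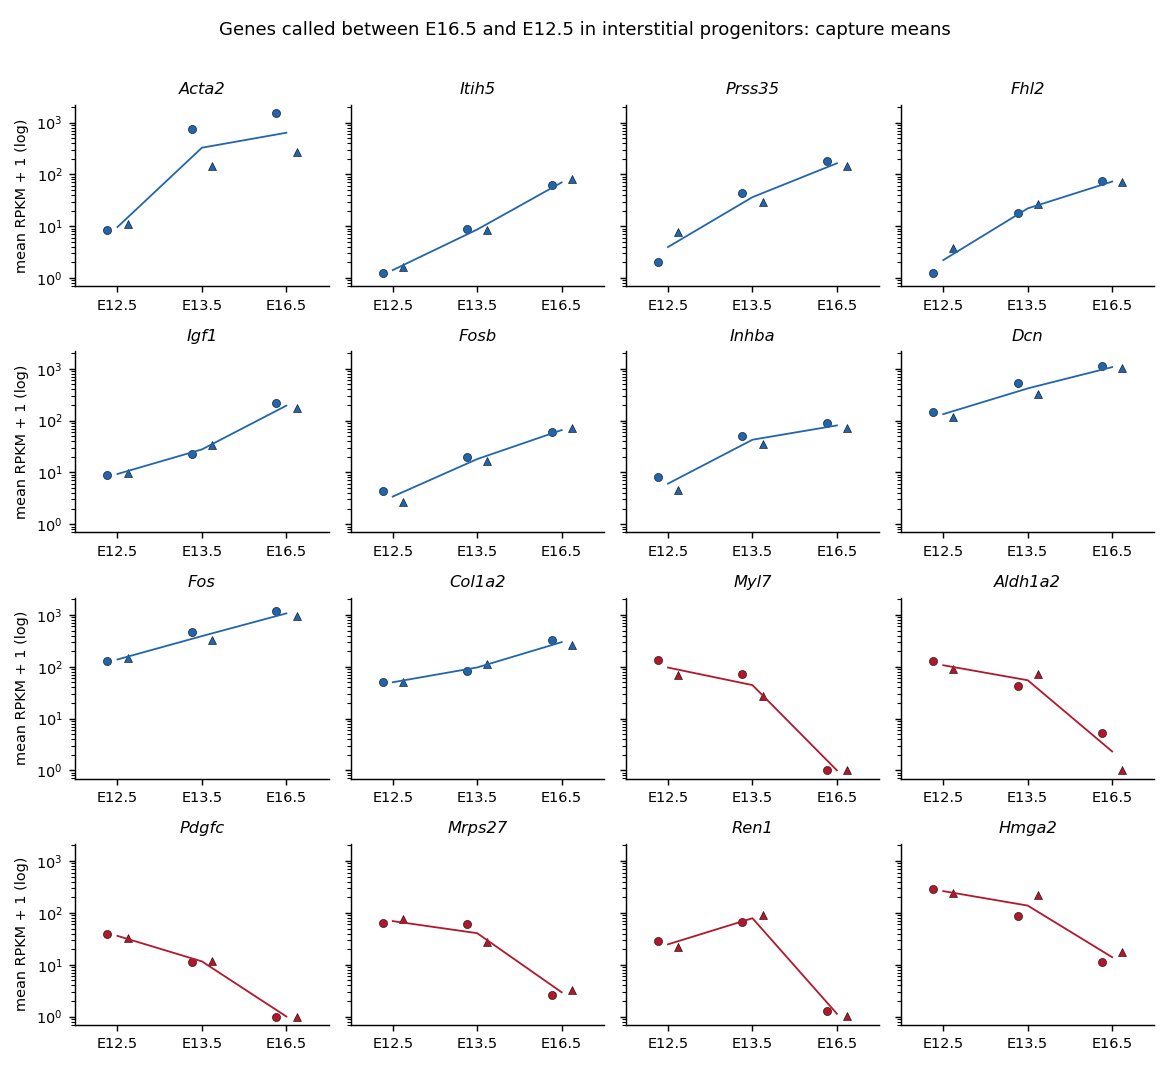
Mean RPKM + 1 over members per capture on a log axis at each stage (circle, first capture; triangle, second capture; line, geometric mean of both), for the 10 genes higher (blue) and the 6 genes lower (red) at E16.5 than at E12.5 among called genes other than predicted models. For each gene both E16.5 captures lie on the same side of both E12.5 captures.

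Matrix genes had the largest positive median of the 23 pathway lists. Dcn encodes decorin, a proteoglycan that coats collagen fibrils, and lies on chromosome 10 at chr10:97479609-97518143 (GRCm38, forward strand). Its capture means were 147 and 119 RPKM at E12.5, then 531 and 327 at E13.5, then 1140 and 1015 at E16.5. Each later stage lay above the earlier one with no overlap between captures. Dcn rose by 3.01 ± 0.355 (SE) on the log2 scale between E12.5 and E16.5 (limma, adjusted p = 0.017). In single cells the change was one of cell number as well as level: Dcn was at 10 RPKM or more in 8 of 23 and 4 of 15 members at E12.5, then in 22 of 30 and 20 of 42 at E13.5, then in 11 of 11 and 13 of 15 at E16.5. Where it was high at E12.5 it was already at a level seen later, with a highest cell of 1222 RPKM in one capture and 1226 RPKM in the other, against 2433 and 3573 RPKM at E16.5.

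Col1a2, a chain of type I collagen, behaved otherwise. Its capture means were 49.7 and 48.7 RPKM at E12.5, then 81.9 and 112 at E13.5, then 331 and 267 at E16.5. It was at 1 RPKM or more in 21 of 23 and 14 of 15 members at E12.5 and in every member at E16.5, where the lowest cells were at 85.4 and 37.6 RPKM. The difference was 2.57 ± 0.407 (adjusted p = 0.0479). Dcn was thus found in a minority of the members sampled at E12.5 and in nearly all of those at E16.5. Col1a2 was found in nearly all members at both stages, with a higher mean at E16.5. Different cells were sampled at each stage, and the part of a changed mix of members was not tested.

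Of the 30 matrix genes tested, 2 rose (Dcn and Col1a2), none fell and 28 had a positive difference, with a median of 1.94. Captures of the 2 stages did not overlap for 27 of the 30, all with E16.5 higher; 14.7% of all genes tested had that pattern. Col1a1, the other type I chain, averaged 36.3 and 17.1 RPKM at E12.5 and 365 and 163 at E16.5, which did not pass (adjusted p = 0.0823). Ogn, the small proteoglycan osteoglycin, was at 0 and 0.0114 RPKM at E12.5 and at 201 and 20.1 RPKM at E16.5, and Lox, which cross-links collagen, was at 0.198 and 0.0486 against 34.3 and 37.8 RPKM (adjusted p = 0.0824 and 0.0977). The 2 genes with a negative difference were Fbln2 and Tnc, at -1.99 and -0.48. Without the high-Acta2 members and with both E16.5 captures the median of the list was 1.63, against -0.83 for all genes, with no call (4.37 for Dcn, adjusted p = 0.292). With the second E16.5 capture alone it was 1.36, against -0.51 for all genes, and the difference for Dcn was 4.14. Without members holding markers of another cell type the median of the list was 2.13 with no call. The 14 basement membrane genes gave no call and a median of 0.49; Nid1, a linker of laminin and collagen, was at 67.5 and 44.8 RPKM at E12.5 and at 98.0 and 98.6 RPKM at E16.5.

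**Figure D3:**
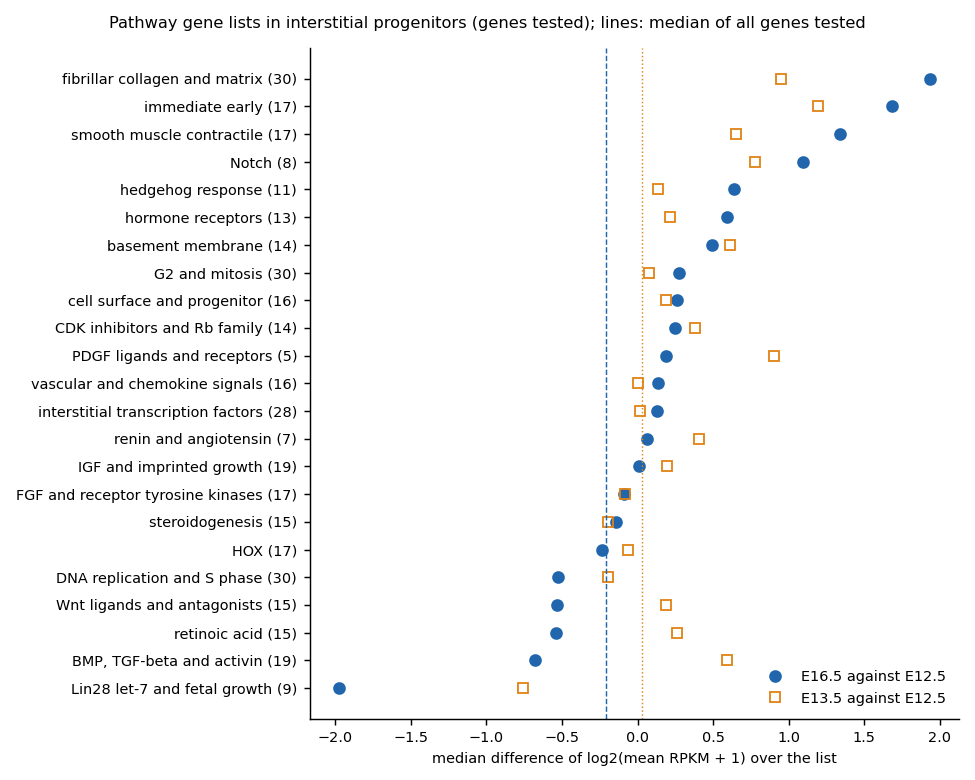
Median difference of log2(mean RPKM + 1) over each of 23 pathway lists, E16.5 against E12.5 (filled circles) and E13.5 against E12.5 (open squares), with the number of genes tested in brackets and the median of all genes tested as dashed and dotted lines. Fibrillar collagen and matrix genes lie highest at 1.94 and the Lin28 and let-7 list lowest at -1.97 for E16.5 against E12.5.

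Growth factor genes included Igf1, an activator of the IGF1 receptor (chr10:87858265-87937042, GRCm38, forward strand). Capture means were 7.81 and 8.87 RPKM at E12.5, then 22 and 32.6 at E13.5, then 217 and 173 at E16.5. The E16.5 captures were far above all others, and 10 of 11 and 14 of 15 E16.5 members had 10 RPKM or more, against 3 of 23 and 5 of 15 at E12.5. Igf1 rose by 4.38 ± 0.526 (adjusted p = 0.017). It was the only 1 of 19 genes of the IGF and imprinted growth list to pass, and the list was split, with 10 positive and 9 negative differences and a median of 0.013. Igf2, the fetal IGF ligand, was at 63.3 and 33.2 RPKM at E12.5 and at 64.7 and 19 RPKM at E16.5, so its captures overlapped.

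Inhba encodes the beta A subunit of activin and inhibin. It averaged 7.08 and 3.56 RPKM at E12.5, then 49.8 and 34.9 at E13.5, then 87.7 and 72.4 at E16.5, and rose by 3.73 ± 0.595 (adjusted p = 0.0479). It was carried by a part of the cells: 4 of 23 and 1 of 15 members had 10 RPKM or more at E12.5, and 6 of 11 and 6 of 15 at E16.5. The remaining 18 tested genes of the BMP, TGF-beta and activin list gave no call, and the list's median was -0.68.

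Called genes of other roles rose with them. Itih5, of the inter-alpha-trypsin inhibitor heavy chains that bind hyaluronan, averaged 0.233 and 0.645 RPKM at E12.5, then 7.98 and 7.34 at E13.5, then 60.2 and 79.2 at E16.5 (difference 5.62 ± 0.772, adjusted p = 0.033). Prss35, a protease-like gene, averaged 1 and 6.90, then 43.4 and 28.9, then 180 and 148 RPKM (5.37 ± 0.712, adjusted p = 0.0299). Fhl2, a LIM-domain cofactor, averaged 0.275 and 2.87, then 17.2 and 25.8, then 74.5 and 69.3 RPKM (5.04 ± 0.76, adjusted p = 0.0462). The stages did not overlap for any of these genes, and the captures of E12.5, where levels were low, differed most in proportion. Itih5 was at 10 RPKM or more in no E12.5 member and in 7 of 11 and 11 of 15 E16.5 members. Fhl2 at E16.5 rested on fewer cells, 4 of 11 and 5 of 15, with a highest cell of 689 RPKM. Gm5424, a processed pseudogene in the annotation, also rose, by 4.75 ± 0.759 (adjusted p = 0.0479); how its reads were told apart from those of its parent gene is uncertain.

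Early-response genes, which encode transcription factors switched on within minutes of a stimulus, included 2 that rose. Fos averaged 127 and 148 RPKM at E12.5, then 474 and 320 at E13.5, then 1183 and 969 at E16.5. Nearly all cells carried it at E16.5, with cell medians of 834 and 610 RPKM against 9.93 and 64.4 at E12.5. Fos rose by 2.95 ± 0.345 (adjusted p = 0.017). Fosb, its relative, went from 3.32 and 1.70 through 18.9 and 15.4 to 59.7 and 70.04 RPKM (4.26 ± 0.677, adjusted p = 0.0479). No captures of E12.5 and E16.5 overlapped for either gene. Of 17 genes tested, 2 rose, none fell, 14 had a positive difference against 41.6% of all genes tested, and the median was 1.68. Without the high-Acta2 members that median was -0.15 with both E16.5 captures (2 members in the first), against -0.83 for all genes. With the second E16.5 capture alone that median was 1.52, against -0.51 for all genes. Egr1, a zinc finger factor of the same class, was at 403 and 415 RPKM at E12.5 and at 780 and 1274.5 RPKM at E16.5 without passing (adjusted p = 0.176), and Atf3, a stress-response factor, went the other way, from 11.1 and 31.3 RPKM to 0 and 0.0203.

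Acta2, smooth muscle actin (chr19:34241090-34255590, GRCm38, reverse strand), had the largest difference of all called genes that rose. Capture means were 7.52 and 9.95 RPKM at E12.5, then 752 and 142 at E13.5, then 1503 and 270 at E16.5. All later captures lay above E12.5, but the captures of a stage differed, and the first E13.5 capture was above the second E16.5 capture. The difference was 6.05 ± 0.851 between E16.5 and E12.5 (adjusted p = 0.0338). The level was uneven among cells: the cell medians at E16.5 were 585 and 39.4 RPKM, and the highest cells reached 5595 and 2238 RPKM, while the median was 0 in both E12.5 captures and in the second E13.5 capture.

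Other contractile genes moved less. Of 17 tested smooth muscle genes, Acta2 alone rose, none fell, 15 had a positive difference, and the median was 1.34. Tagln, an actin-binding protein of smooth muscle, averaged 5.13 and 14.5 RPKM at E12.5 and 581 and 93.4 at E16.5 (adjusted p = 0.117). Myh11 and Cnn1, markers of mature smooth muscle, were at 31.5 and 39.8 RPKM in the first E16.5 capture and at 0.967 and 0 RPKM in the second. Tpm1, a tropomyosin of many cell types, was at 207 and 237 RPKM at E12.5 and at 308 and 169 RPKM at E16.5. The summed mean of the peritubular and smooth muscle list was 20.7 and 31.9 RPKM at E12.5, then 898 and 188 at E13.5, then 2185 and 379 at E16.5. Without the high-Acta2 members and with both E16.5 captures the median of the 17 genes was 0.075, against -0.83 for all genes. With the second E16.5 capture alone it was 0.46, against -0.51 for all genes.

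Within captures, Acta2 ran with some contractile genes across cells. Spearman's rho between Acta2 and Myl9, the smooth muscle myosin light chain, was 0.87 and 0.70 at E16.5 (11 and 15 cells), 0.47 and 0.26 at E13.5 (30 and 42 cells), and close to 0 or negative at E12.5. For Tagln it was 0.64 and 0.66 at E16.5 and -0.15 and -0.05 at E12.5. Other contractile genes had other patterns. For Tpm1 rho was 0.78 and 0.41 at E16.5 and 0.40 and 0.53 at E12.5. For Tpm2 it was 0.56 and 0.27 at E16.5 and 0.30 and 0.70 at E12.5. For Cald1 it was 0.15 and -0.08 at E16.5 and 0.25 and 0.14 at E12.5. The E12.5 coefficients rest on few cells, as Acta2 was at 1 RPKM or more in 3 of 23 and 3 of 15 members. Between Acta2 and Dcn rho ranged from -0.42 to 0.32 over the 6 captures, so no common sign was seen. The cells of a capture share a chip, and the coefficients describe these cells.

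**Figure D4:**
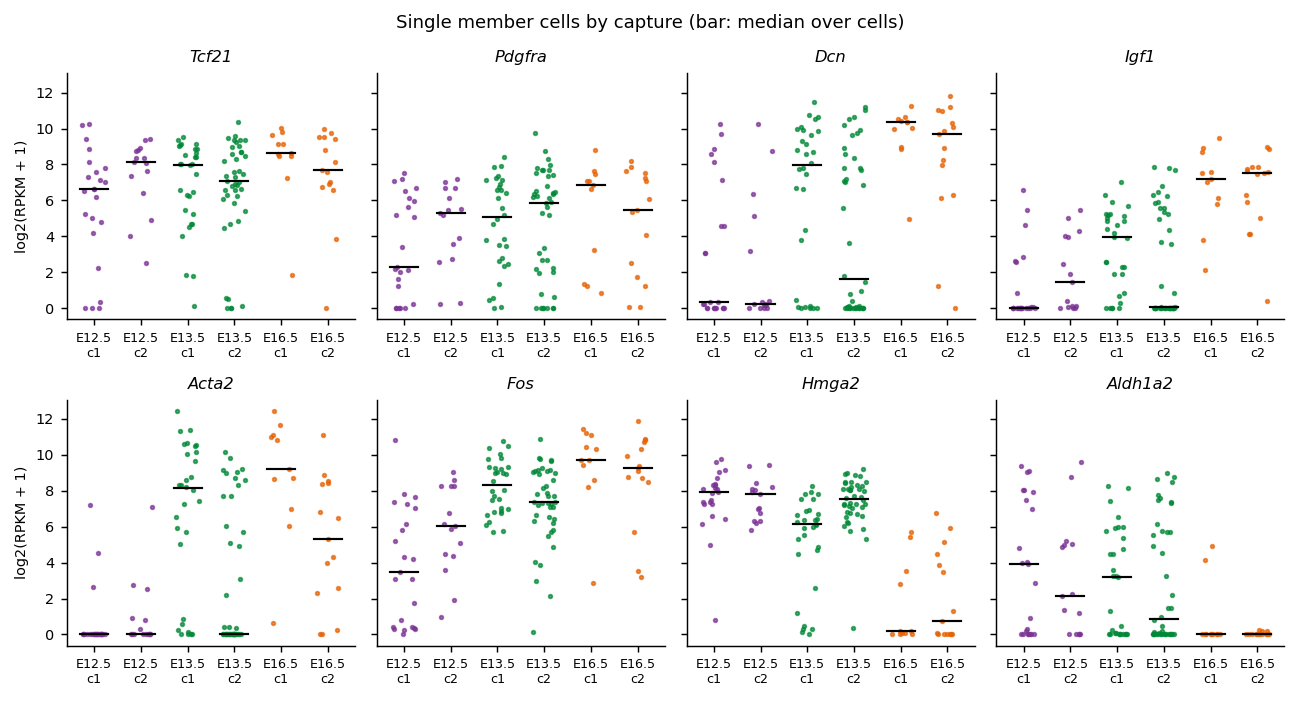
log2(RPKM + 1) of single members by capture (c1, first; c2, second) for 8 genes, with a bar at the median over cells. Dcn, Igf1 and Acta2 are at or near 0 in most E12.5 members, Hmga2 is near 0 in most E16.5 members, and Tcf21 is spread over the same range at all stages.

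Hmga2 had the clearest fall among genes that most cells carried. It encodes an architectural chromatin protein of embryonic cells and lies at chr10:120361275-120476469 (GRCm38, reverse strand). Its capture means were 285 and 241 RPKM at E12.5, then 85.4 and 221 at E13.5, then 10.1 and 16.6 at E16.5. Both E16.5 captures were below every other capture. Hmga2 was at 10 RPKM or more in 22 of 23 and 15 of 15 E12.5 members, in 23 of 30 and 41 of 42 E13.5 members, and in 3 of 11 and 5 of 15 E16.5 members. It fell by 4.24 ± 0.535 (the fitted difference is -4.24, adjusted p = 0.0231). In the captures of E12.5 and E13.5 its mean was of like size in members with coelomic markers (249, 328, 99.6 and 235 RPKM) and in those without (353, 210, 79.4 and 212 RPKM).

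Hmga2 mRNA is a textbook target of the let-7 family of microRNAs, whose maturation Lin28 proteins block. MicroRNAs were not measured in these libraries, and the letters are shown as the sequence context of the gene that fell. The RefSeq table held 11 mature mouse let-7 and miR-98 sequences, of which 10 share the seed (bases 2 to 8, in capitals):
mmu-let-7a-5p: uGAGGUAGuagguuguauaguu
mmu-let-7g-5p: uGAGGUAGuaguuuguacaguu
mmu-miR-98-5p: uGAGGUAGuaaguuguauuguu
The eleventh, mmu-let-7j, differs from them in its seed. The complement of the shared seed, CTACCTC, was searched on the transcript strand of 3′ untranslated regions of GENCODE M21, and overlaps with other motifs were not considered. It was found 4 times in the 3014 bases of the Hmga2 3′ untranslated region, all in exon 6, the last exon. At least 1 match was present in 9.02% of 21020 genes with such a region, and 12 genes had 4 or more. The region is longer than the median of 961 bases. The matches, in capitals on the transcript strand (reverse strand of chromosome 10, GRCm38), are:
site 1, chr10:120364222-120364245: ccgacattcaatttCTACCTCagc
site 2, chr10:120362985-120363008: cccactcctcaataCTACCTCtga
site 3, chr10:120362547-120362570: tgatttgcaaggaaCTACCTCcac
site 4, chr10:120361689-120361712: atcaaaacacactaCTACCTCtta
A match describes the letters alone and says nothing of let-7 in these cells.

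The Lin28 and let-7 list, which also holds other genes of fetal growth, had 9 tested members, of which Hmga2 fell, none rose and all had a negative difference, with a median of -1.97 against -0.21 for all genes tested. Captures did not overlap for 5 of the 9, with E16.5 lower, a pattern of 24.5% of all genes tested. Hmga1, the related chromatin protein, was at 17 and 3.71 RPKM at E12.5 and at 0 and 0.0752 RPKM at E16.5 (adjusted p = 0.307). Igf2bp1, an RNA-binding protein of fetal cells, was at 5.2 and 11 RPKM against 2.01 and 0.223, and its relative Igf2bp3 stayed between 17.5 and 45 RPKM in all captures. Lin28a was at 0.488 and 1.77 RPKM at E12.5, at most 0.0111 at E13.5 and at 0 in both E16.5 captures, and it was too low to be tested, as was Lin28b.

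Aldh1a2, which makes retinoic acid from retinal, and Myl7 and Pdgfc fell, and their means were higher in members with markers of coelomic epithelium. Aldh1a2 averaged 125 and 89.4 RPKM at E12.5, then 41.2 and 70.4 at E13.5, then 4.21 and 0.0305 at E16.5, and the E16.5 captures were below all others. The fitted difference was -5.53 ± 0.799 (adjusted p = 0.0379). Members with at least 2 other coelomic markers averaged 225, 160, 163 and 127 RPKM in the 4 captures of E12.5 and E13.5, and members without them 16.496, 71.9, 22.5 and 57.2 RPKM. Without members holding markers of another cell type the difference was -2.77 and did not pass (adjusted p = 0.616); Aldh1a2 is itself 1 of those markers.

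Myl7, an atrial myosin light chain, averaged 132 and 69 RPKM at E12.5 and 72.1 and 25.8 at E13.5, and was listed at 0 in all 26 members of E16.5 (adjusted p = 0.017; no fold is given against 0). It came from few cells, 5 of 23, 7 of 15, 3 of 30 and 7 of 42 at 1 RPKM or more, with a highest cell of 1663 RPKM. In the first captures of E12.5 and E13.5 it averaged 202 and 240 RPKM in members with coelomic markers and 0.238 and 0 RPKM in members without. In the second captures the values were 152 and 65.9 RPKM with the markers and 38.9 and 3.50 RPKM without. Myl7 was thus higher in coelomic-marked members of all 4 captures.

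Pdgfc, a ligand of PDGF receptors, averaged 38 and 32.3 RPKM at E12.5 and 10.3 and 10.9 at E13.5, and was also listed at 0 in every E16.5 member (adjusted p = 0.0479). In the same order of captures it averaged 57.4, 73.4, 10.7 and 28.9 RPKM in coelomic-marked members and 1.5, 17.4, 10.1 and 0.868 RPKM in the rest, so the groups were alike only in the first E13.5 capture. It did not pass without members holding markers of another cell type (adjusted p = 0.556). Of the other tested PDGF genes none passed. Pdgfrb, the second receptor, was at 4.66 and 65.5 RPKM at E12.5 and at 19 and 51.2 RPKM at E16.5.

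The coelomic list itself had 9 tested genes, of which Aldh1a2 fell, none rose and all had negative differences, with a median of -2.49. Its summed mean was 450 and 136 RPKM at E12.5, then 120 and 201 at E13.5, then 4.32 and 7.80 at E16.5. Krt18, a keratin of simple epithelia, averaged 56.7 and 13.1 RPKM at E12.5 and 27 and 26 at E13.5, and was listed at 0 at E16.5 without passing (adjusted p = 0.0824). Upk3b, a surface protein of mesothelium, was at 16 and 0.619 RPKM at E12.5, then 3.28 and 10.7 at E13.5, then 0 in both E16.5 captures. Coelomic-marked members were not without interstitial markers: their Tcf21 means were 196, 394, 317 and 164 RPKM and their Pdgfra means 18.8, 56.4, 39.2 and 87.5 RPKM in the captures of E12.5 and E13.5. Pdgfra was lower in them than in the other members in the first E12.5 capture (82 RPKM without the markers) and in both E13.5 captures (86.7 and 107 RPKM), and not in the second E12.5 capture (47.5 RPKM).

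Retinoic acid genes as a list were split, with Aldh1a2 fallen, none risen, 6 positive and 9 negative differences among 15 and a median of -0.54; without members holding markers of another cell type the median turned to 0.61.

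Ren1 and Mrps27 also fell, and their means were lower in coelomic-marked members than in the rest in 3 of the 4 captures of E12.5 and E13.5. Ren1, renin, averaged 27.2 and 20.7 RPKM at E12.5, then 67.1 and 90.5 at E13.5, then 0.265 and 0.0141 at E16.5, and was highest at E13.5. The fitted difference between E16.5 and E12.5 was -4.45 ± 0.711 (adjusted p = 0.0479). It came from a minority of cells, 3 of 23, 1 of 15, 6 of 30 and 7 of 42 at 1 RPKM or more at the 2 earlier stages, with a highest cell of 2383 RPKM. It passed in 2 of the 11 settings tried other than leaving out a capture. Some mouse strains carry the near-identical copy Ren2, and the background here was mixed, so how the reads were assigned between copies is uncertain.

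Mrps27, a protein of the small mitochondrial ribosome subunit, averaged 62.7 and 74.6 RPKM at E12.5, then 59.8 and 26.1 at E13.5, then 1.65 and 2.26 at E16.5 (-4.56 ± 0.666, adjusted p = 0.0379). Both E16.5 captures lay below all others, and 1 of 11 and 1 of 15 E16.5 members were at 10 RPKM or more, against 11 of 23 and 4 of 15 at E12.5. The predicted gene Gm8113 fell as well, by 5.26 on the log2 scale. Cdc42ep2, Hs1bp3, Tm4sf5 and Krt18 had fitted differences between those of Pdgfc and Mrps27 and did not pass (adjusted p between 0.0667 and 0.127).

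Lists without a call follow. The 28 interstitial transcription factor genes had 16 positive and 12 negative differences and a median of 0.13; Nfia, a nuclear factor I protein, was at 74.2 and 68.3 RPKM at E12.5, then 105 and 99.5 at E13.5, then 122 and 119 at E16.5, and Lhx9, a LIM homeobox factor of the early gonad, at 17 and 49.3 RPKM against 21.3 and 31.2 at E16.5. For hedgehog response, 7 of 11 differences were positive with a median of 0.64; Ptch1, the receptor and a target of the pathway, was at 11 and 18.9 RPKM at E12.5, then 23.5 and 38.1 at E13.5, then 25.9 and 57.3 at E16.5 (adjusted p = 0.49). The 8 tested Notch genes had a median of 1.10, with the target Heyl at 1.10 and 8.43 RPKM at E12.5 and 16.9 and 44.8 at E16.5 (adjusted p = 0.365). None of these genes passed, and a p that misses the threshold does not show that levels were equal.

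Steroidogenic genes outside the rule gave no call among 15 and a median of -0.14. Star, which brings cholesterol into mitochondria, was at 3.31 and 4 RPKM at E12.5, then 1.69 and 1.02 at E13.5, then 0.196 and 0.19 at E16.5. Both E16.5 captures were the lowest, with an adjusted p of 0.42.

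Cell cycle genes did not move together when all members were used. The 30 tested genes of DNA replication and S phase had 20 negative differences and a median of -0.53, and the 30 of G2 and mitosis had 12 negative differences and a median of 0.27. Without the high-Acta2 members and with both E16.5 captures these medians were -2.51 and -1.67, against -0.83 for all genes. With the second E16.5 capture alone they were -1.02 and 0.61, against -0.51 for all genes. Mcm4, a subunit of the replicative helicase, was at 102 and 221 RPKM at E12.5 and 92.2 and 53.8 at E16.5 (adjusted p = 0.468), and Ccnb2, a mitotic cyclin, at 69.2 and 73 RPKM against 75.8 and 109. Wnt5a, a Wnt ligand of gonad mesenchyme, lay between 63.5 and 107 RPKM in all 6 captures. Cxcl12, a chemokine of stromal cells, was at 6.07 and 18.6 RPKM at E12.5, then 61.8 and 25.8 at E13.5, then 76.4 and 145 at E16.5 (adjusted p = 0.144).

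The comparisons with E13.5 gave no call. For E13.5 against E12.5, 0 of 11052 genes passed in limma (0%), 346 (3.13%) had an unadjusted p under 0.05, and no alternative gave a call. For E16.5 against E13.5, 0 genes passed (0%) and 900 (8.14%) had an unadjusted p under 0.05, and 7 genes passed without the first E16.5 capture. Without the high-Acta2 members 0 genes passed with all captures and 97 without the first E16.5 capture. The largest differences in the first were led by Acta2 (5.09 ± 0.851, unadjusted p = 0.000119), the cytochrome P450 gene Cyp2d22 (0.00607 and 0 RPKM at E12.5, then 20.2 and 10.7 at E13.5) and Ogn. In the second, Ren1 came closest (-6.12 ± 0.711, adjusted p = 0.0505), and Lrrc17, a secreted leucine-rich repeat protein, was at 16.6 and 9.19 RPKM at E13.5 and at 218 and 184 RPKM at E16.5. Lrrc17 was also at 29.1 and 36.7 RPKM at E12.5, so E13.5 held its lowest values. These comparisons share the E13.5 captures, and stage cannot be told apart from labelled depth in either.

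For the called genes, the E13.5 captures mostly lay between the other stages. Dcn, Igf1, Itih5, Prss35, Fhl2, Fosb, Inhba, Fos and Col1a2 had both E13.5 means above both E12.5 means and below both E16.5 means. Acta2 at E13.5 overlapped E16.5, and Ren1 at E13.5 lay above E12.5. Mrps27, Aldh1a2, Hmga2, Myl7 and Pdgfc had E13.5 means that were below at least 1 E12.5 capture and above both E16.5 captures.

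Whether a stage difference was particular to the members was tested against the Sertoli-rule cells of the same captures, from the difference between the classes within each capture. In limma 0 of 11887 genes passed (0%), and 1103 (9.28%) had an unadjusted p under 0.05. Hmga2 was low at E16.5 in both classes: Sertoli-rule cells averaged 113 and 195 RPKM at E12.5, then 40.4 and 143 at E13.5, then 0.0815 and 6.62 at E16.5, and the difference of the stage changes was 1.46 ± 1.17 (adjusted p = 0.74). Prss35 and Fosb were also highest at E16.5 in Sertoli-rule cells, at 152 and 104 RPKM and at 19.5 and 20.6 RPKM. None of the called genes can therefore be given as particular to the members.

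Other genes ran apart in their capture means. Mrps27 in Sertoli-rule cells was at 32.7 and 49.4 RPKM at E12.5 and at 56.2 and 53.5 at E16.5, whereas it dropped in members; the difference of changes was -5.0 ± 0.926 (unadjusted p = 0.00102, adjusted p = 0.466). Col1a2 in Sertoli-rule cells was at 8.40 and 38.1 RPKM at E12.5 and 4.93 and 45.4 at E16.5, with a difference of changes of 2.78 ± 1.72 (adjusted p = 0.662). Cpe, carboxypeptidase E, a hormone-processing enzyme named here after its values were seen, was at 162 and 221 RPKM in members at E12.5, then 46.6 and 70.4 at E13.5, then 20.7 and 28.6 at E16.5. In Sertoli-rule cells Cpe was at 112 and 232, then 211 and 354, then 359 and 464 RPKM, so the classes went in opposite directions. Its difference of changes was -4.24 ± 0.948 with an adjusted p of 0.466, and of 0.0319 when the variance trend was set on the mean level of the 2 classes.

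The largest differences of changes were from genes low in 1 class and did not pass. Tm4sf1, a tetraspanin-like membrane protein, had 7.07 ± 0.958 and Lgals9, galectin 9, had 7.24 ± 1.58, both with Sertoli-rule means at or near 0 at E16.5. Nfil3, a basic leucine zipper factor, had -7.12 ± 1.13, with Sertoli-rule means of 0 and 4.25 RPKM at E12.5 and 37.0 and 23.9 at E16.5. Sertoli-rule cells numbered 6 and 22 in the E12.5 captures, and those of the second carried Nr2f2 and Tcf21 as described, so the classes were less distinct there.

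**Figure D5:**
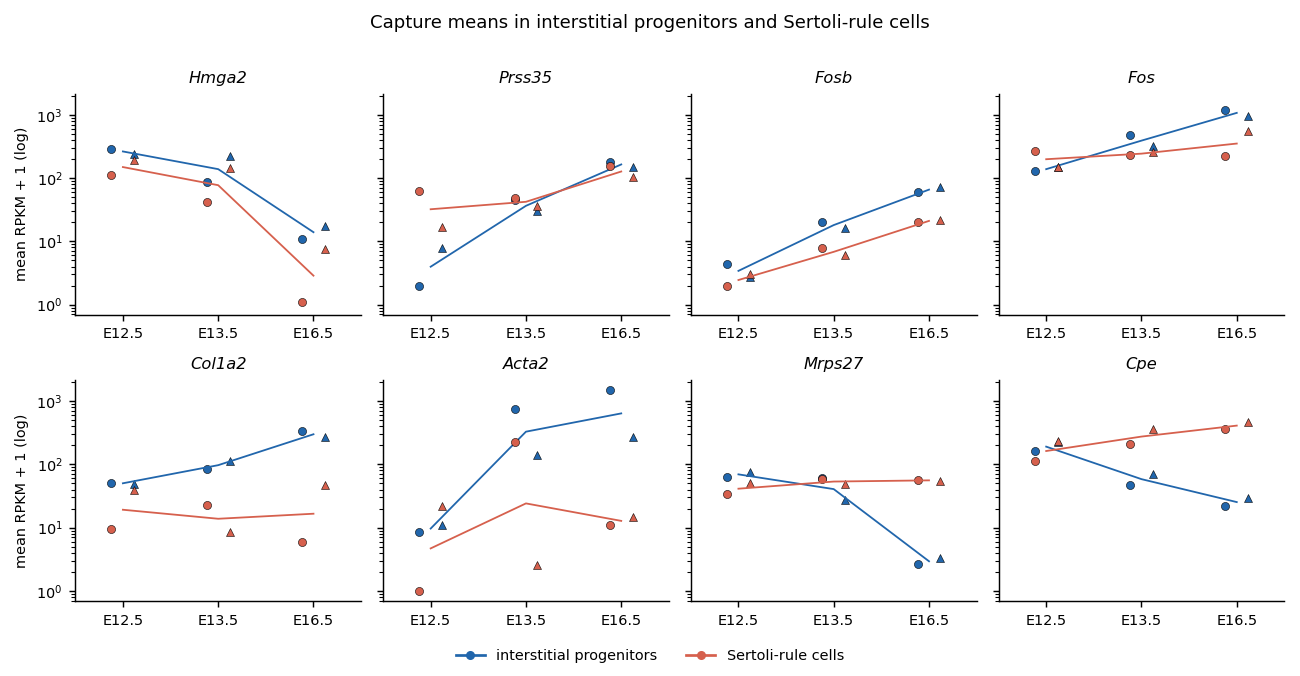
Mean RPKM + 1 per capture on a log axis at each stage for interstitial progenitors (blue) and Sertoli-rule cells (red), circles for the first and triangles for the second capture, lines for the geometric mean of both. Hmga2 is lower at E16.5 in both classes, whereas Mrps27 and Cpe are lower at E16.5 than at E12.5 in members and not in Sertoli-rule cells; neither difference of changes passed (adjusted p = 0.466).

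As a description of what else the members held, 384 of 11887 genes (3.23%) were higher in members than in Sertoli-rule cells in all 6 captures with a median log2 difference of 1 or more, and 448 (3.77%) were lower. Against all other kept cells of the captures, 355 of 11919 genes were higher in the same way (2.98%) and 455 were lower (3.82%). Dcn led the first with a median of 4.15, followed by Ncs1, a neuronal calcium sensor (3.89), and Wfdc1, a secreted protease-inhibitor-like protein (3.70). Cnn2, a calponin of non-muscle cells, averaged between 31.6 and 434 RPKM in members and between 0.118 and 35.4 in Sertoli-rule cells. Nrg1, a ligand of ERBB receptors, averaged between 25.8 and 126 RPKM in members and between 0.0224 and 25.8 in Sertoli-rule cells. Bgn, biglycan, a relative of decorin, averaged between 45.5 and 261 RPKM in members and between 0.142 and 23.2 in Sertoli-rule cells. Among the lower genes, Spp1, osteopontin, reached 8.51 RPKM in members and lay between 47.8 and 274 in Sertoli-rule cells, and Clu, clusterin, lay between 13.6 and 57.6 against 127 to 2550. These ranges rest on the cells that the rule separated.

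Measured values also differed widely between cells of 1 capture. The ranking took only genes found in some members and not in others, so a large SD partly follows from that choice. Missed detection was not told apart from a difference between cells. Among genes found at 1 RPKM or more in 20% to 80% of members, Enc1, an actin-binding kelch protein, had the largest mean SD within captures, 4.03 on the log2 scale, and was at 1 RPKM or more in 86 of 136 members with a median of 114 RPKM. Btg2, an antiproliferative gene, followed with 3.82 and 108 of 136 members, then Dcn with 3.53 and 84 of 136 members. Dcn and Col3a1, type III collagen, had Spearman coefficients between 0.10 and 0.63 over the 6 captures, all positive, whereas Dcn and Igf1 lay between -0.31 and 0.03. Dcn and Igf1, which both rose with stage, thus showed no common order among the cells of a capture.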

How the data were processed

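Single-cell RNA-seq values were deposited by the authors as RPKM per gene and cell for 400 of 435 labelled cells and 16459 genes. Builds GRCm38.p3 and mm10 are named per the submitters' processing notes; the aligner, counter, annotation and cell filter were not given in the sources used here. RPKM scales for depth but not for its effect on which genes are detected. A depth per cell was also estimated from the step between low values. Its medians over members were 2.97 and 2.56 M reads at E12.5, 8.31 and 7.77 M at E13.5, and 2.22 and 2.80 M at E16.5. These lay below the labelled 10 and 25 M. Low values were whole multiples of 1 read (within 0.05) in a median of 68.6% of cases, so no count test was run.

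Cells under 3000 detected genes were left out (3 cells, 1 a member), and 2 wells of the second E12.5 capture that correlated at 0.998 were averaged. No doublet caller was run. Member cells were averaged per capture, and log2(mean + 1) was fitted in limma 3.58.1 (trend, robust) with stage as a factor over 6 captures (3 residual degrees of freedom), for genes at 1 RPKM or more in at least 2 captures, with Benjamini-Hochberg adjustment over all genes tested and a threshold of 0.05. P-values measure the spread between captures. A second fit used the difference between members and Sertoli-rule cells of a capture. Both fits were also run on simulated captures with known changes, and how many of these were found is not reported here.

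Named genes were the 10 largest changes each way that passed, did not overlap and reached 5 RPKM, without predicted models, filled with values that did not pass; plus up to 4 called or 2 highest members of each list, the 15 largest class differences, and the 12 most variable genes. Other genes named were list members or were chosen after their values were seen. The members and lists were chosen with earlier results of these data known. Alternatives covered the pseudocount, filter, scaling, averaging, weighting, membership limits and each capture left out; a capture needed 3 members unless stated.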

Additional observations from a re-analysis of the deposited data

Results flagged for a closer look

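Cells of the 2 earliest stages lie outside the comparisons. At E10.5, 98.3% of cells (58 of 59, Wilson 95% interval 91 to 99.7) met the same gene thresholds as the members. At E11.5 the share was 90.4% in the first capture (47 of 52) and 78% in the second (32 of 41). Sertoli and Leydig genes are what the thresholds leave out, so these shares describe how many early cells lack those genes while carrying Nr2f2. They give no cell type for the early cells.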

How the results depend on the processing

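Each stage had 2 captures, so 1 capture can decide a call. For E16.5 against E12.5 (18 genes) the count was 72 (50 higher and 22 lower) when log2 values were averaged over cells, 6 with strict limits on Sertoli and Leydig genes, 5 with a pseudocount of 0.1, and 4 with the captures of the 2 stages alone. Leaving out high-Acta2 members, chosen after seeing the data, left the first E16.5 capture with 2 members: the count was 0 with that capture kept and 122 (13 and 109) without it, against 49 (8 and 41) without that capture alone. It was 0 with no filter on low values, with weighted captures, and without members holding markers of another cell type, with 1366, 899 and 994 genes at an unadjusted p under 0.05. Leaving out 1 capture gave 0 to 49 genes. It was 19 with median-ratio scaling, 20 with a pseudocount of 5, and 18 with Nr2f2 limits of 5 or 20 RPKM. For E16.5 against E13.5 (0 genes) the count was 97 without both high-Acta2 members and the first E16.5 capture, 0 with that capture kept, 5 with averaged log2 values, 2 with a pseudocount of 0.1, 1 with weighted captures, and 0 to 7 with 1 capture left out. The difference between classes gave 1 gene, Cpe, with the variance trend on mean level, chosen after seeing the data. Genes apart between members and Sertoli-rule cells numbered 469 with a pseudocount of 5 against 832. The cause was not tested for any of these. Median-ratio scaling moved the median of all genes from -0.21 to -0.10. Of 23 pathway lists, 8 kept the sign of their median in all 6 other settings in which lists were summarised (matrix, basement membrane, smooth muscle, Notch, hedgehog, renin, Lin28, and DNA replication) and 15 did not, among them early-response, interstitial factor, steroidogenesis, mitosis, IGF, retinoic acid, BMP and PDGF genes. Signs were taken against 0, whereas the median of all genes in these settings ran from -0.83 to 0.0014. The early-response median changed sign in 1 setting, at -0.15 where all genes were at -0.83. The renin median kept its sign at 0.033 to 0.45. Without members holding markers of another cell type Myl7 and Tm4sf5 were too low to be tested. No paired analysis was possible because captures carry no replicate number that is shared between stages.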
